A study of Mus musculus with 6 samples.

Results

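The mitochondrial ribosomal protein genes are the nuclear genes that encode the protein parts of the ribosome inside mitochondria. They were taken as all protein-coding genes of GENCODE mouse release M21 whose symbol starts with Mrpl or Mrps followed by a digit. The annotation holds 78 such genes, and 77 were among the 38087 gene IDs counted, 48 named for the large subunit (Mrpl) and 29 for the small subunit (Mrps). Mrpl33 was not analysed here. All 77 passed the filter on low counts and were among the 16666 genes tested.

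The mitochondrial ribosome translates the few mRNAs of mitochondrial DNA, which encode membrane subunits of the respiratory chain and ATP synthase. Its RNAs are made inside the organelle, while its proteins are made in the cytosol and imported. The small subunit holds the mRNA and the decoding site, and the large subunit joins amino acids and releases the chain through an exit tunnel. Many of the proteins descend from bacterial ribosomal proteins, and others are found only in mitochondria. Heart muscle, which is rich in mitochondria, depends on this supply of respiratory chain subunits.

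Messenger RNA was sequenced from HL-1 cells, an immortalised mouse atrial cardiomyocyte line, in 2 groups of 3 libraries. Circ-INSR siRNA cells were transfected with 100 nM of an siRNA against Circ-INSR, a circular RNA from the insulin receptor locus, and control siRNA cells with a scramble siRNA. Both groups are cultures of the same line with no other genetic change named in the labels, and RNA was selected by its poly(A) tail, so a circular RNA is not measured. Whether each library is a culture of its own is not stated, and the p-values therefore reflect library-to-library spread that may be technical.

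Total counts ran from 68468620 to 77037474 in Circ-INSR siRNA libraries and from 60024750 to 62523602 in control libraries. All 11 cardiomyocyte markers were above 1 CPM (counts divided by the TMM-scaled library size) in every library. Their summed level was 12790 to 12952 CPM after Circ-INSR siRNA and 10905 to 12132 CPM in control. Of the 11, 6 had a higher mean after Circ-INSR siRNA and the rest a lower one, among them Tnnt2, at 1216 against 2021 CPM. Tcf21 and Adgre1 were at 0 and Dcn, Lum, Cdh5, Vwf, Ptprc and Lyz2 near 0, and 4 of 6 fibroblast, 3 of 5 endothelial and 3 of 5 macrophage markers were under 1 CPM throughout. The summed fibroblast markers ran from 131.6 to 148.6 CPM after Circ-INSR siRNA and from 171.6 to 189.3 CPM in control. Most of this was Col1a1, with means of 119.5 against 168.7 CPM, while Col3a1 went the other way, at 22.2 against 12.2 CPM. The endothelial markers ran from 71.5 to 75.7 against 23.9 to 26.1 CPM, nearly all of it Kdr. The macrophage markers ran from 3.78 to 4.26 against 6.53 to 7.40 CPM. Their part in the results was not tested. Genes encoded by mitochondrial DNA, and with them the RNAs of the mitochondrial ribosome, were not analysed here.

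The promoters of the 3 members with the largest rises, Mrps16, Mrpl37 and Mrpl3, are shown so that the motif counts given further on can be read beside the DNA. Each run is the 250 bases before the RefSeq start (GRCm38.p6), written 5′ to 3′ on the strand of the gene, from chr14:20393635-20393884 (minus strand) for Mrps16, chr4:107066867-107067116 (minus strand) for Mrpl37 and chr9:105053018-105053267 (plus strand) for Mrpl3. Capitals mark a CACGTG motif (E-box) in Mrpl37 and a CCGGAAG motif (ETS family) in Mrpl3, and the Mrps16 stretch held none of the 5 motifs searched. The counts also cover the 50 bases after the start, which are not shown and hold an AAGATGG motif (YY1) in Mrpl37.
Mrps16: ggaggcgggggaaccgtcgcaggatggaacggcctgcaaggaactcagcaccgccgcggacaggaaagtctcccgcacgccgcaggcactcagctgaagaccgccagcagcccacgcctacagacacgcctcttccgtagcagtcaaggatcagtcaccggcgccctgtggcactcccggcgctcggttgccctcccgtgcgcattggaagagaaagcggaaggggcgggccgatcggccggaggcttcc
Mrpl37: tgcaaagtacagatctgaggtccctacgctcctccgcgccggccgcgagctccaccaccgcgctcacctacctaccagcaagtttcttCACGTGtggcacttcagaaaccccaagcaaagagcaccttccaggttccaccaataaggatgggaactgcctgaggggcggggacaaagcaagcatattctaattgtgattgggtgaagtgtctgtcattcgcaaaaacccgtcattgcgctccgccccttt
Mrpl3: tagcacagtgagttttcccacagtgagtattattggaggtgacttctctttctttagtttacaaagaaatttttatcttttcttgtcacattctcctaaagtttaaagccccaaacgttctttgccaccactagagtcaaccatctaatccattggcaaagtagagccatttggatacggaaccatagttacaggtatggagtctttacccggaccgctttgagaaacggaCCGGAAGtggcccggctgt

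After Circ-INSR siRNA, 42 of the 77 mitochondrial ribosomal protein genes were higher and 8 were lower, and 27 did not pass the test (edgeR quasi-likelihood test at 0.05, with p adjusted by Benjamini-Hochberg over all genes tested). Of these genes 54.5% were higher and 10.4% lower, against 28.5% and 28.5% of all genes tested, of which 57.0% were called either way. The changes were small. The median log2 fold change was 0.17 and the range was -0.63 to 0.65, while the median of all genes tested was -0.0045. No member changed by 1 or more on the log2 scale, and 6 were called with a change of at least 0.5, where 24.0% of all genes tested were. All 3 Circ-INSR siRNA libraries were above all controls for 42 members and below them for 10. Of all genes tested 32.0% and 31.3% separated in these directions, 63.3% in all.

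The difference between the large and small subunit lists was not tested gene by gene. Of 48 large subunit genes 27 were higher and 5 lower, with a median log2 fold change of 0.17, and of 29 small subunit genes 15 were higher and 3 lower, with a median of 0.18. In the structure of the mammalian ribosome Mrps30 and Mrps18a sit in the large subunit despite their names, and Mrps36 is better known as a subunit of the oxoglutarate dehydrogenase complex. Placed this way, 28 of 50 large and 14 of 26 small subunit genes were higher, and 5 and 3 were lower. The middle 50% of log2 fold changes ran from 0.01 to 0.30 in the large subunit by name and from -0.04 to 0.24 in the small subunit.

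**Figure D1:**
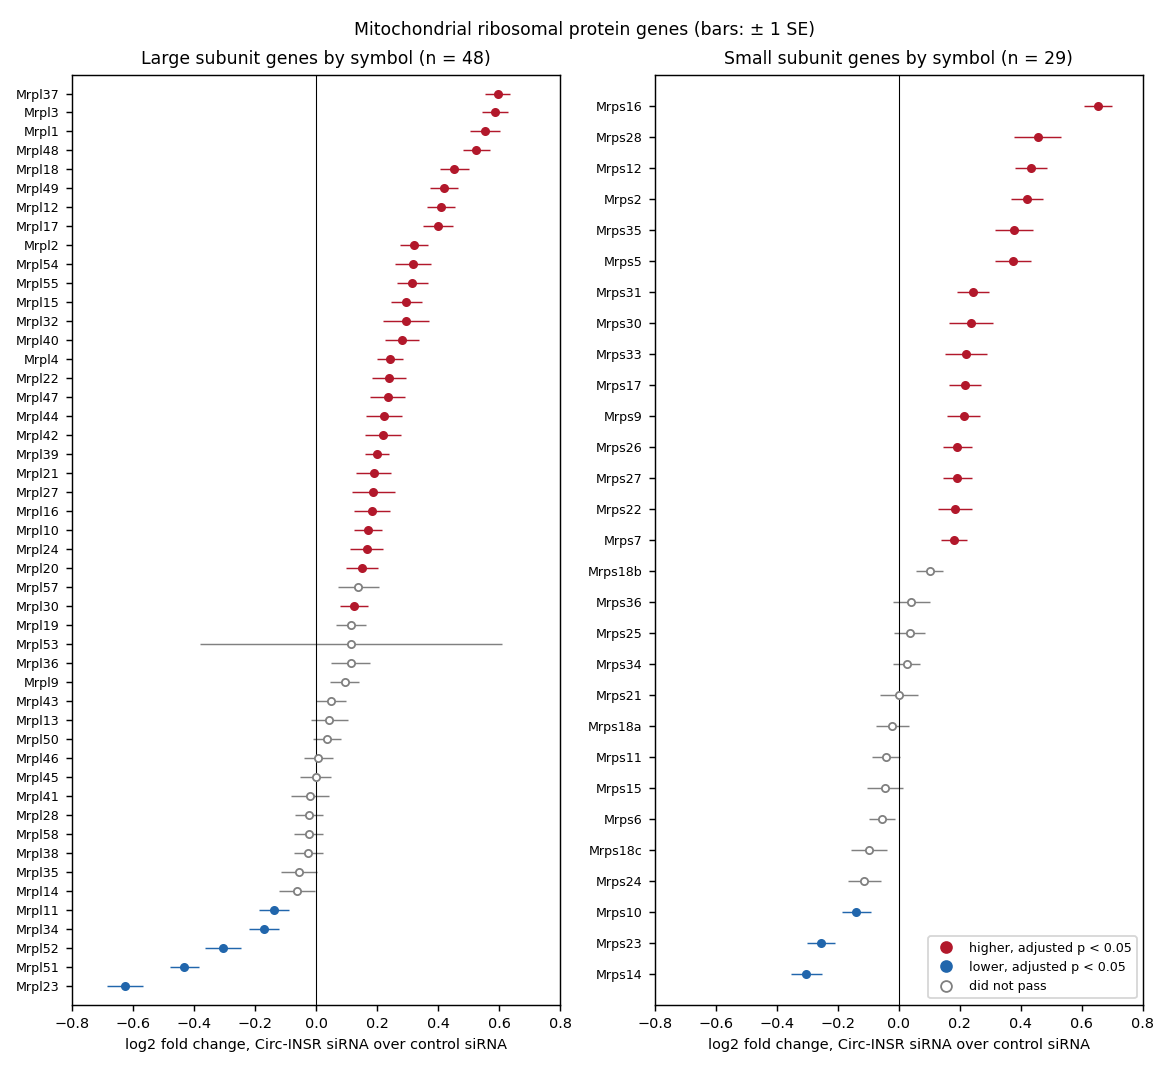
Log2 fold change of each tested member, Circ-INSR siRNA over control siRNA, with bars of 1 SE, for 48 large subunit genes (left) and 29 small subunit genes (right). Filled red points passed the test as higher, filled blue points as lower, and open points did not pass; Mrps16 at 0.65 and Mrpl23 at -0.63 mark the ends of the range.

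The highest rise was in the small subunit. Mrps16, homologous to bacterial S16 and needed for small subunit assembly (mm10 chromosome 14, 20389304 to 20393634, minus strand), had 74.0, 71.8 and 73.2 CPM after Circ-INSR siRNA, against 45.0, 45.7 and 48.7 CPM in control. The groups were well apart, and the log2 fold change was 0.65 (SE 0.05; edgeR adjusted p = 3.09e-07). Mrps28 had 29.7, 28.1 and 29.1 CPM after Circ-INSR siRNA and 19.2, 20.0 and 24.1 CPM in control, where replicate 3 was the highest control (log2 fold change 0.46, SE 0.08; edgeR adjusted p = 0.000346). Mrps12, a protein of the decoding site, had 35.8, 33.1 and 36.3 CPM after Circ-INSR siRNA and 26.2, 25.8 and 25.9 CPM in control. The controls differed little from each other, and the log2 fold change was 0.43 (SE 0.05; edgeR adjusted p = 2.28e-05). Mrps2, homologous to bacterial S2, had 42.9, 39.9 and 38.8 CPM after Circ-INSR siRNA and 30.3, 31.1 and 29.5 CPM in control, again without overlap (0.42, SE 0.05; edgeR adjusted p = 3.24e-05). Mrps12 starts at position 28741820 of chromosome 7 on the minus strand, head to head with Sars2, the mitochondrial seryl-tRNA synthetase gene, which starts at 28741992 on the plus strand. Sars2 had 19.0, 18.4 and 19.7 CPM after Circ-INSR siRNA and 14.4, 14.1 and 13.8 CPM in control, a log2 fold change of 0.43 as well (SE 0.06; edgeR adjusted p = 5.81e-05).

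In the large subunit Mrpl37, which has no bacterial homologue (chromosome 4, 107055874 to 107066868, minus strand), had 111.0, 109.1 and 113.1 CPM after Circ-INSR siRNA and 73.8, 73.3 and 73.3 CPM in control. The replicates lay close together in both groups, and the log2 fold change was 0.60 (SE 0.04; edgeR adjusted p = 2.41e-07). Mrpl3, a core protein near the site of peptide bond formation (chromosome 9, 105053239 to 105079888, plus strand), had 65.5, 65.7 and 66.2 CPM after Circ-INSR siRNA and 42.7, 44.0 and 44.8 CPM in control (0.59, SE 0.04; edgeR adjusted p = 4.01e-07). Mrpl1, of the stalk next to the site where tRNA leaves, had 38.9, 36.7 and 38.5 CPM after Circ-INSR siRNA and 25.4, 26.0 and 26.3 CPM in control (0.55, SE 0.05; edgeR adjusted p = 1.82e-06). Both were separated from control by more than the spread of either group. Mrpl48 and Mrpl18 are proteins of the central protuberance, the crest of the large subunit. Mrpl48 had 56.5, 56.0 and 55.6 CPM after Circ-INSR siRNA and 37.6, 39.3 and 39.9 CPM in control (0.53, SE 0.04; edgeR adjusted p = 1.33e-06). Mrpl18 had 118.3, 114.2 and 121.4 CPM after Circ-INSR siRNA and 82.0, 87.9 and 88.5 CPM in control (0.45, SE 0.05; edgeR adjusted p = 7.10e-06). Mrpl49, with no bacterial homologue, had 65.9, 60.8 and 64.6 CPM after Circ-INSR siRNA and 48.01, 47.4 and 47.5 CPM in control (0.42, SE 0.05; edgeR adjusted p = 1.07e-05). The 32 other rises lay between 0.13 and 0.41 on the log2 scale.

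**Figure D2:**
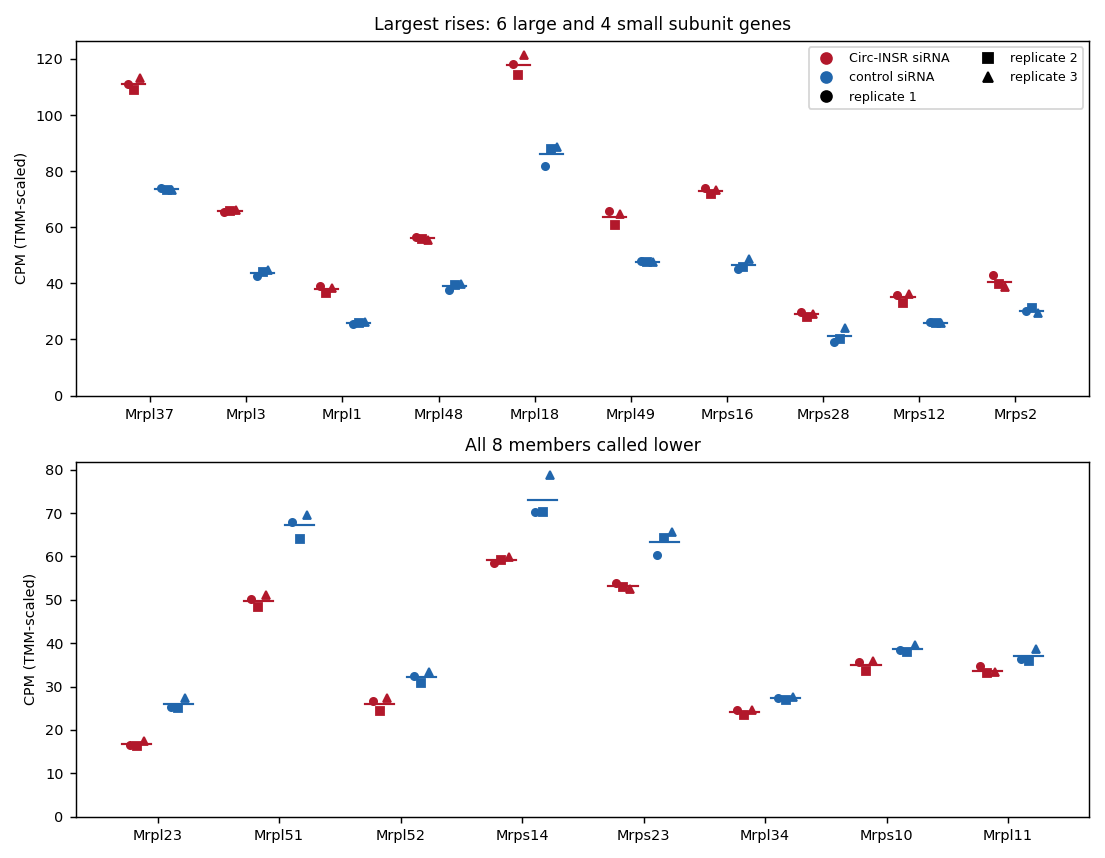
CPM in each library for the 10 largest rises (top) and for all 8 members called lower (bottom), Circ-INSR siRNA in red on the left of each gene and control siRNA in blue on the right. Marker shapes give the replicate number and horizontal bars the group mean; in all 18 genes the red and blue points are apart.

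The 8 members that fell came from both subunits. Mrpl23, at the exit tunnel (chromosome 7, 142532686 to 142540747, plus strand), had 16.6, 16.2 and 17.5 CPM after Circ-INSR siRNA and 25.2, 25.1 and 27.3 CPM in control, a log2 fold change of -0.63 (SE 0.06; edgeR adjusted p = 3.37e-06). Mrpl51, which has no bacterial homologue, had 50.1, 48.3 and 51.1 CPM after Circ-INSR siRNA and 68.0, 64.0 and 69.6 CPM in control (-0.43, SE 0.05; edgeR adjusted p = 1.21e-05). Both stood apart from control by more than the replicate spread. Mrpl52, also with no bacterial homologue, had 26.6, 24.4 and 27.3 CPM after Circ-INSR siRNA and 32.5, 30.7 and 33.5 CPM in control (-0.30, SE 0.06; edgeR adjusted p = 0.000824). Mrps14, of the head of the small subunit, had 58.5, 59.2 and 59.9 CPM after Circ-INSR siRNA and 70.2, 70.3 and 78.6 CPM in control (-0.30, SE 0.05; edgeR adjusted p = 0.000365). Mrps23, with no bacterial homologue, had 53.9, 52.9 and 52.5 CPM after Circ-INSR siRNA and 60.3, 64.2 and 65.7 CPM in control (-0.26, SE 0.05; edgeR adjusted p = 0.000563). Control replicate 3 was the highest library for each of these genes.

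The other 3 falls were smaller. Mrpl34, homologous to bacterial L34, changed by -0.17 (SE 0.05; edgeR adjusted p = 0.0114). Mrps10, of the small subunit head, and Mrpl11, at the base of the stalk that binds translation factors, changed by -0.14 each (SE 0.05 each; edgeR adjusted p = 0.0269 and 0.0329). Without Circ-INSR siRNA replicate 2 all 3 calls were lost, at -0.15 for Mrpl34, -0.11 for Mrps10 and -0.12 for Mrpl11, which left 5 of the 77 genes lower. Of 16 alternatives, 6 lost the call of Mrpl11, among them the fits without any 1 of the Circ-INSR siRNA replicates or control replicate 3, and 3 lost that of Mrps10, among them the fit without Circ-INSR siRNA replicate 1. With a trend on length and GC content removed Mrpl34 was at -0.02 (edgeR adjusted p = 0.661).

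Proteins that sit together in the ribosome were also compared. At the factor-binding stalk and its base Mrpl12 and Mrpl10 rose, by 0.41 and 0.17, while Mrpl11 fell. Mrpl12, the stalk protein that recruits translation factors, had 104.2, 98.4 and 100.3 CPM after Circ-INSR siRNA and 75.4, 73.4 and 79.1 CPM in control. Of 6 proteins around the exit tunnel Mrpl17, Mrpl22, Mrpl24 and Mrpl47 rose, by 0.40, 0.24, 0.17 and 0.23, Mrpl23 fell, and Mrpl45, which lies at the inner membrane, was at -0.00072 and did not pass (edgeR adjusted p = 0.992). The call of Mrpl24 was lost with total count scaling (0.12) and without Circ-INSR siRNA replicate 1 (0.13), control replicate 1 (0.15) or control replicate 2 (0.13). Of 5 proteins chosen from the central protuberance, which need not be all of it, Mrpl18, Mrpl40 and Mrpl48 rose. Mrpl38 and Mrpl46 had -0.03 and 0.01. These 3 groupings were made after the values were seen. Among members placed by structure, 27 of 47 with a bacterial homologue were higher (57.4%) and 5 lower (10.6%). Without one, 15 of 29 were higher (51.7%) and 3 lower (10.3%). The medians were 0.17 and 0.18, and 28.5% of all genes tested were called in each direction.

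The 27 members that did not pass had log2 fold changes from -0.11 to 0.14. The paralogs Mrps18a, Mrps18b and Mrps18c, all related to bacterial S18, were among them. Mrps18a had 44.0, 42.2 and 45.2 CPM after Circ-INSR siRNA and 43.5, 42.3 and 47.4 CPM in control, so the groups overlapped (-0.02, SE 0.05; edgeR adjusted p = 0.765). Mrps18b had 43.2, 44.2 and 42.5 CPM after Circ-INSR siRNA and 40.9, 39.3 and 40.9 CPM in control (0.10, SE 0.05; edgeR adjusted p = 0.0751), and was called higher without control replicate 3 (0.12) and with the length and GC trend removed (0.22). Mrps18c changed by -0.10 (SE 0.06; edgeR adjusted p = 0.169). Mrps36 had 20.4, 20.1 and 21.0 CPM after Circ-INSR siRNA and 18.7, 19.7 and 21.4 CPM in control (edgeR adjusted p = 0.590). Mrpl58, a peptidyl-tRNA hydrolase that frees stalled ribosomes, had 42.9, 43.0 and 45.4 CPM after Circ-INSR siRNA and 43.5, 44.0 and 46.0 CPM in control (edgeR adjusted p = 0.684). Mrps30 was called higher, at 45.6, 40.9 and 43.3 CPM after Circ-INSR siRNA and 34.7, 34.4 and 41.2 CPM in control, where replicate 3 overlapped with the Circ-INSR siRNA group (0.24, SE 0.07; edgeR adjusted p = 0.0145). That call was lost without Circ-INSR siRNA replicate 1 (log2 fold change 0.20), control replicate 1 (0.20) or control replicate 2 (0.19), and with a trend on length and GC content removed (0.17).

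Levels per exonic length differed widely among these genes. On the TPM scale (counts divided by exonic length and scaled to the same total in each library) their means over all libraries ran from 2.40 to 286.0, with a median of 69.9, against 17.7 for all genes tested. The highest level was that of Mrps6, homologous to bacterial S6, with 277.0 ± 4.35 TPM after Circ-INSR siRNA and 295.1 ± 7.05 TPM in control (SD, n = 3 each). The groups did not overlap, but the log2 fold change of -0.06 did not pass (edgeR adjusted p = 0.308). Mrps6 shares 464 of its 1533 exonic bases with other genes on the same strand, one of them Slc5a3, and Mrps24 shares 226 of 1466 with Urgcp, so both levels are uncertain. Next came Mrpl18, with 290.9 ± 6.07 TPM after Circ-INSR siRNA and 218.0 ± 7.94 TPM in control, and Mrpl28, with 226.0 ± 4.38 TPM after Circ-INSR siRNA and 235.7 ± 7.71 TPM in control (SD, n = 3 each). Mrps21 had 226.3 ± 9.13 TPM after Circ-INSR siRNA and 232.2 ± 15.1 TPM in control, Mrpl12 had 227.1 ± 5.71 TPM after Circ-INSR siRNA and 175.4 ± 4.04 TPM in control, and Mrps24 had 190.2 ± 5.86 TPM after Circ-INSR siRNA and 211.0 ± 10.4 TPM in control (SD, n = 3 each). Of these 6 genes Mrpl18 and Mrpl12 passed the test, and the lowest level was that of Mrpl53. Mrps24 was called lower without control replicate 1 (-0.14) or under total count scaling (-0.16).

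Mrpl53 had 0.238, 0.605 and 0.849 CPM after Circ-INSR siRNA and 0.248, 0.840 and 0.478 CPM in control, so the groups overlapped (log2 fold change 0.12, SE 0.50; edgeR adjusted p = 0.860). It shares 695 of its 790 exonic bases with Gm42688 on the same strand, and how the counting treated such reads is not given in the sources used here, so its level is uncertain. Exon bases were shared with another gene by 32 members. Among these 15 were higher (46.9%) and 1 lower (3.1%), with a median log2 fold change of 0.12. Of the 45 that shared none, 27 were higher (60%) and 7 lower (15.6%), with a median of 0.20. Of all genes tested 28.5% were called in each direction.

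The summed level of the large subunit genes was higher after Circ-INSR siRNA by more than the spread of the libraries. It was 4102, 4035 and 4084 TPM after Circ-INSR siRNA and 3688, 3671 and 3812 TPM in control, a ratio of 1.09. The small subunit sum was 2317, 2267 and 2284 TPM after Circ-INSR siRNA and 2179, 2216 and 2323 TPM in control, a ratio of 1.02. The groups overlapped through control replicate 3 alone. Without that library the ratios were 1.11 (large) and 1.04 (small). On the CPM scale, which is not divided by length and uses TMM-scaled library sizes, the ratios were 1.14 and 1.07. The large sum divided by the small sum was 1.77, 1.78 and 1.79 after Circ-INSR siRNA and 1.69, 1.66 and 1.64 in control, so the groups were apart. Abundant genes weigh most in these sums: without the 5 highest, Mrps6, Mrpl18, Mrpl28, Mrps21 and Mrpl12, the ratio was 1.86, 1.86 and 1.87 after Circ-INSR siRNA and 1.84, 1.798 and 1.79 in control.

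**Figure D3:**
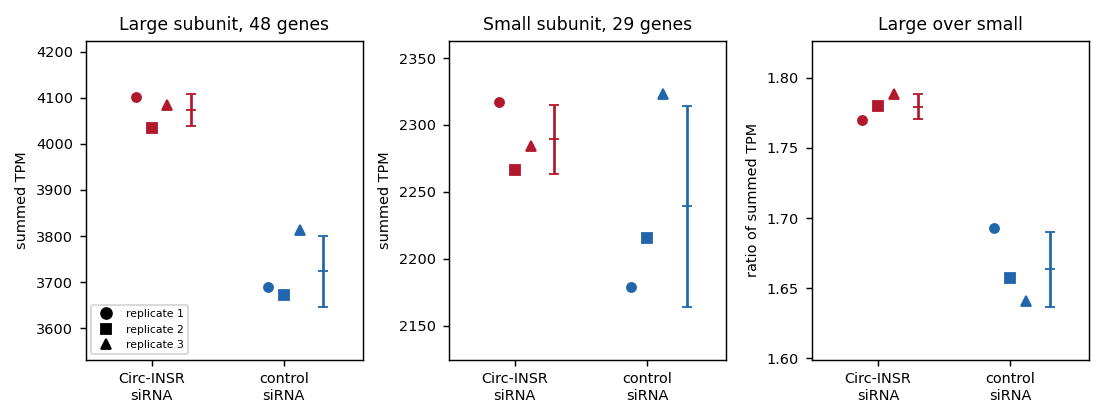
Summed TPM of the large subunit genes (left), the small subunit genes (middle) and the ratio of the sums (right) in each library, with the mean and 1 SD beside the points; the axes do not start at 0. The large subunit sums are 4035 to 4102 after Circ-INSR siRNA and 3671 to 3812 in control, while the small subunit sums overlap through control replicate 3.

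Control replicate 3 was the highest of the controls for 68 of the 77 members (88.3%), against 38.4% of all genes tested. The median member was 0.07 above its control mean in that library on the log2 scale, and 0.03 below it in each of the other 2. In the shortest 10% of genes tested (at most 992 bases), the median gene in this library was 0.10 above its mean over all 6 libraries. In the longest 10% (at least 9219 bases) it was 0.13 below that mean. The median exonic length was 2255 bases for the members and 3778 bases for all genes tested. Whether length has a part in the high values of the members in control replicate 3 was not tested. Without control replicate 3, 48 members were higher and 7 lower, and with a trend on length and GC content removed 50 were higher and 6 lower. The counts over all genes tested moved too. They were 4750 higher and 4745 lower in the main fit, and 5150 and 5064 without control replicate 3. With the trend removed 5597 of all genes tested were higher, and slightly fewer than in the main fit were lower. Across the 77 members the log2 fold change had a Pearson correlation of 0.15 with log2 length and 0.09 with mean log2 CPM, a description over genes that share the same 6 libraries.

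Other proteins of the mitochondrial ribosome carry names outside the Mrpl and Mrps series. Among 5 such genes 4 were higher (80%) and none lower, against 28.5% and 28.5% of all genes tested. The median log2 fold change was 0.32. Dap3, a GTP-binding protein of the small subunit, had 120.8, 119.8 and 121.7 CPM after Circ-INSR siRNA and 92.1, 95.0 and 95.4 CPM in control (0.36, SE 0.04; edgeR adjusted p = 1.45e-05). Gadd45gip1, a large subunit protein, had 35.5, 34.0 and 35.6 CPM after Circ-INSR siRNA and 27.5, 26.1 and 26.4 CPM in control (0.39, SE 0.05; edgeR adjusted p = 2.98e-05). Ptcd3 and Aurkaip1 rose by 0.32 and 0.20, and Chchd1 had -0.13 and did not pass. Chchd1 was called lower with the replicate number as a block (-0.13; edgeR adjusted p = 0.0203), without control replicate 1 (-0.18) and under total count scaling (-0.18).

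Genes for assembly of the mitochondrial ribosome and maturation of its RNA went both ways, with 10 of 30 higher (33.3%), 6 lower (20%) and a median of 0.08, against 28.5% and 28.5% of all genes tested. Noa1, a GTPase of small subunit assembly, had 61.2, 58.7 and 57.2 CPM after Circ-INSR siRNA and 29.8, 29.7 and 32.0 CPM in control (0.95, SE 0.05; edgeR adjusted p = 3.20e-08). Mpv17l2, an inner membrane protein needed for assembly, had 28.5, 27.7 and 29.3 CPM after Circ-INSR siRNA and 55.5, 55.3 and 59.3 CPM in control (-0.99, SE 0.05; edgeR adjusted p = 2.17e-08). Both changes were larger than that of any member. C1qbp, a matrix protein that binds RNA, rose by 0.71, and Mettl15, a methyltransferase of the small ribosomal RNA, by 0.64.

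Of 17 translation factors and mRNA-binding proteins 8 were higher (47.1%) and 2 lower (11.8%), with a median of 0.12, and the 58.8% called either way was close to the 57.0% of all genes tested. Gfm1, the elongation factor that moves the ribosome along the mRNA, had 205.7, 206.9 and 207.1 CPM after Circ-INSR siRNA and 147.7, 148.3 and 150.4 CPM in control (0.47, SE 0.04; edgeR adjusted p = 1.11e-06). Oxa1l, the insertase that receives the nascent chains, rose by 0.50, and Taco1, a translation activator of cytochrome oxidase subunit 1, fell by 0.34 on the log2 scale. Mtrf1l, a release factor, rose by 0.33, a call lost without Circ-INSR siRNA replicate 1 (0.28). Beside 28.5% of all genes tested in each direction, 11 of 22 aminoacyl-tRNA synthetases and amidotransferase subunits were higher (50%) and 4 lower (18.2%). The median of this list was 0.13. Without Circ-INSR siRNA replicate 1, and with total count scaling, 7 were higher, and without control replicate 3 only 2 were lower. Of the 3 amidotransferase subunits 1 rose and 2 fell. Gatc had 14.8, 14.2 and 14.6 CPM after Circ-INSR siRNA and 6.84, 6.83 and 6.96 CPM in control (1.08, SE 0.06; edgeR adjusted p = 8.85e-08), and Gatb had 17.6, 15.4 and 15.5 CPM after Circ-INSR siRNA and 22.8, 22.4 and 22.1 CPM in control (-0.47, SE 0.06; edgeR adjusted p = 6.45e-05). Qrsl1, the catalytic subunit, had a log2 fold change of -0.25 (SE 0.05; edgeR adjusted p = 0.00116).

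Of 10 regulators that act on nuclear genes for mitochondrial proteins 7 were higher (70%) and 2 lower (20%), with a median of 0.24. Of all genes tested 28.5% were called in each direction. Gabpa, the DNA-binding subunit of an ETS family factor, had 201.8, 212.0 and 210.4 CPM after Circ-INSR siRNA and 121.8, 132.7 and 131.5 CPM in control (0.69, SE 0.05; edgeR adjusted p = 2.29e-07). Of its partner subunits Gabpb1 was called lower, at -0.19, and Gabpb2 higher, at 0.17, with the Gabpb2 call lost with total count scaling (0.13) and without Circ-INSR siRNA replicate 1 (0.17) or 2 (0.15). Ppargc1b and Ppargc1a, coactivators of nuclear genes for mitochondrial proteins, rose by 0.68 and 0.44, and Myc by 0.60. Beside Gabpb1, the regulator called lower was Esrra, named after its value was seen, at -0.22 (edgeR adjusted p = 0.00176). Of 8 genes that act on mitochondrial DNA, most of them in its transcription, 3 were higher (37.5%) and none lower. The 37.5% called either way lay below the 57.0% of all genes tested. The 3 were Tfam, which packs that DNA, at 0.38, Mterf2 at 0.28 and Twnk, the helicase of that DNA, at 0.19. Twnk shares 507 exon bases with the member Mrpl43 on the opposite strand. The Mterf2 call was lost without Circ-INSR siRNA replicate 3, control replicate 1 or control replicate 3 (0.24 to 0.25), and the Twnk call without Circ-INSR siRNA replicate 1 (0.16).

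**Figure D4:**
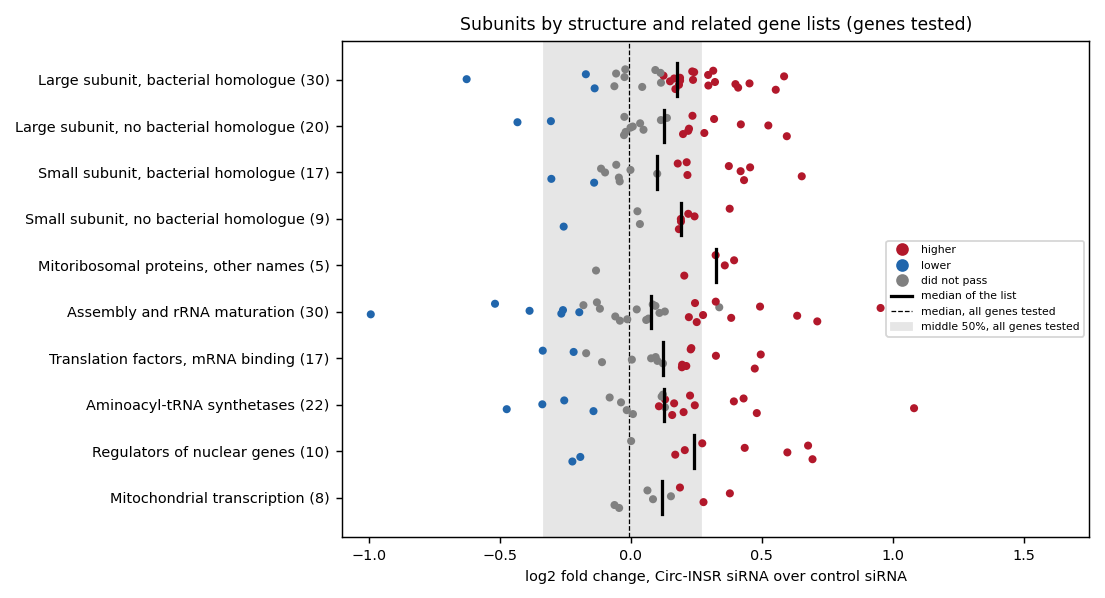
Log2 fold change, Circ-INSR siRNA over control siRNA, of each tested gene in the members by structure (top 4 rows) and in the related lists, with the number of genes tested in brackets. Black bars are list medians, the dashed line and grey band are the median and middle 50% of all genes tested, and the list medians run from 0.08 to 0.32.

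Promoter motifs, 5 in all, were counted on both strands in the window from 250 bases before to 50 after each RefSeq start, where 68 of the 77 members and 11408 of the genes tested had a window. None of the motifs contains another. CCGGAAG (ETS family) was in 25 of the 68 members (36.8%), against 18.7% of the genes tested. Mrps16 is counted here through another, downstream RefSeq start, whose window is not shown. The motif was in 13 of 37 members called higher (35.1%), 4 of 8 called lower (50%) and 8 of 23 that did not pass (34.8%). AAGATGG (YY1) was in 13 members (19.1%), against 8.14% of the genes tested, and CATGCGC (NRF1) in 7 (10.3%), against 7.53%. CACGTG (E-box) was in 5 members (7.35%), against 11.4%, and TGACGTC (cyclic AMP response element) in 4 (5.88%), against 5.90%. These counts describe letters in the windows and were not tested.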

How the data were processed

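Poly(A) RNA of HL-1 cells was sequenced in 2 groups of 3 libraries. The authors deposited raw read counts per Ensembl gene ID, 1 table per library. The submitters' processing notes name mm10, STAR 2.5.0c and featureCounts 1.6.4; for annotation release, strand setting and multi-mapped reads the setting is not given in the sources. Symbols and exonic lengths came from GENCODE M21, which held 36308 of 38087 IDs. Genes were filtered by filterByExpr (minimum count 10, minimum total 15), TMM-scaled and tested with edgeR 4.0.16 (robust quasi-likelihood test, group as the only term), with Benjamini-Hochberg adjustment over 16666 genes and a threshold of 0.05. Each SE was derived from the log2 fold change and its F statistic. The steps were tested on simulated data. CPM and TPM were computed from the deposited counts. Alternatives were DESeq2 1.42.0, limma-voom (limma 3.58.1), other scalings and filters, leaving out each library, a replicate block, halved counts and a length and GC trend. Named genes were the 6 large and 4 small subunit members with the largest called rises, all called falls, the 3 highest per-length levels in each subunit, Mrps18a, Mrps18b, Mrps18c, Mrps30, Mrps36, Mrpl58 and, from each related list, up to 4 called genes with the largest change, of which 1 is not reported here; Mrpl53, Mrpl46, region members and partner genes were named after their values were seen. Members, lists and region groupings were chosen with earlier results of these data known. Precision was limited by counting error and by the spread between libraries. The common biological coefficient of variation was 6.09%.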

Additional observations from a re-analysis of the deposited data

How the results depend on the processing

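Members called higher ranged from 33 to 48 and members called lower from 5 to 9 when 1 library was left out. Over all genes tested these ranges were 4209 to 5150 and 4148 to 5064. For the large subunit they were 21 to 32 and 3 to 5. In each case the lowest lower count came without Circ-INSR siRNA replicate 2. With the length and GC trend removed 3 large subunit genes were lower. Total count scaling gave 34 members higher and 9 lower, and a large subunit median of 0.12, against 0.17. Over all genes tested it gave 4130 higher and 5326 lower, against 4750 and 4745 in the main fit. On the CPM scale, which differs from TPM in library scaling as well as length, the summed level ratio was 1.14 (large) and 1.07 (small). In alternatives chosen after seeing the data, 5 members were higher and 1 lower with a change of at least 0.5, and 27 were higher among members sharing no exon base. Of the calls, 33 of 42 rises and 5 of 8 falls held in all 16 alternatives. After each gene's group mean was subtracted, same-numbered libraries of the 2 groups had correlations over genes of 0.02, 0.07 and 0.04. Pairs of different number ran from -0.044 to 0.006. Each library correlated best with its own number, at most a weak hint from the data and not the design. Subtracting group means makes the correlations of a library largely cancel, so negative values between different numbers are partly built in. With a replicate block 43 members were higher and 8 lower. Members that did not pass could change sign, and the cause was not tested. With the length and GC trend removed the log2 fold changes were 0.12 for Mrpl28, then called higher, 0.0419 for Mrps6, 0.11 for Mrps21, 0.0273 for Mrps24, 0.11 for Mrps18a and 0.0312 for Mrpl58. Mrps21 was at 0.0072 with no filter, 0.000747 with the replicate block and 0.000442 with limma-voom, and Mrps36 at -0.0038 with total count scaling. Leaving out 1 library gave -0.0585 to 0.0113 for Mrpl28, -0.0417 to 0.0721 for Mrps21, -0.0558 to 0.0335 for Mrps18a, -0.0026 to 0.10 for Mrps36 and -0.0482 to 0.0042 for Mrpl58.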

Other observations

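Annotated pseudogenes of Mrpl23 and Mrpl48, named here after their values were seen, had log2 fold changes close to those of the genes they resemble. Mrpl23-ps1 had 6.23, 6.46 and 7.46 CPM after Circ-INSR siRNA and 9.70, 9.45 and 11.3 CPM in control, a log2 fold change of -0.60 (SE 0.10; edgeR adjusted p = 0.00024), beside -0.63 for Mrpl23. Mrpl48-ps had 9.95 ± 0.0723 CPM after Circ-INSR siRNA and 6.82 ± 0.236 CPM in control (SD, n = 3 each). Its log2 fold change was 0.54 (SE 0.07; edgeR adjusted p = 4.36e-05), beside 0.53 for Mrpl48. How reads that match both copies were counted is not given in the sources used here, so these values are uncertain. Mrps36-ps1 and Mrps36-ps2 did not pass the test. Some members share exon bases on the opposite strand with a gene that moved differently. Mrpl14 had -0.06 where Tmem63b had -1.12, and Mrpl44 rose by 0.22 where Wdfy1 had -0.60. Other members moved the same way as such a gene. Mrpl18 rose by 0.45 and Tcp1 by 0.31, and Mrpl27 rose by 0.19 and Eme1 by 0.64. Whether shared bases affect these values was not tested.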
